A study of Rattus norvegicus with 23 samples.

Results

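The genes described here are 47 genes of the cell cycle: the enzymes and replication factors of S phase, the cyclins and kinases that carry a cell from G1 into S phase, the machinery of mitosis, and a small set of inhibitors. A gene was measured by an Affymetrix probe set whose only annotated gene it was, and where a gene had several such probe sets the one with the highest mean over the 23 arrays stood for it. By this rule 45 of the 47 genes were measured among 14218 genes in all. They comprised 10 genes of S phase, 7 regulators of G1 and of the passage into S phase, 24 genes of mitosis and 4 inhibitors. Rrm2 was found only on probe sets that name several genes, and no probe set was named for Tpx2.

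RNA came from 3 cell types of rat liver in 8 groups. Hepatocytes were taken at day 12 from hepatocyte monolayers on collagen (HM), from collagen sandwiches (CS), from the 3D model in which liver sinusoidal endothelial cells (LSECs) lie on a chitosan and hyaluronic acid multilayer above the hepatocytes (3DHL), and from the 3D model that also holds Kupffer cells (KCs), the resident macrophages of the liver (3DHLK). At day 12 the LSECs (both 3D models) and the KCs (3DHLK) were separated with magnetic beads that carried antibodies to SE-1 and CD163, and KCs in monolayers, which the labels call KCs before the 3D culture, were taken at day 3. Hepatocytes and LSECs came from the same isolations from female Lewis rats, the KCs were purchased as cryopreserved primary rat cells, and each group had 3 arrays, or 2 in the case of the 3DHLK KCs.

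Cells enter the cycle when mitogens raise the D cyclins, which with Cdk4 free the E2F factors from the retinoblastoma proteins. E2F factors then switch on the genes of DNA replication, and a later wave of genes, many of them under the factors B-Myb and FoxM1 and the DREAM complex, builds the spindle and separates the chromosomes. Adult hepatocytes are mostly out of cycle in the liver but can re-enter it after loss of tissue, and cultured hepatocytes raise cyclin D1 as they lose their differentiated state. Inhibitors such as p21, p27 and p15 hold the cyclin-dependent kinases back.

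All values are log2 expression values, so a difference of 1 is a change of 2-fold, and changes are given between groups. Replicate arrays correlated at 0.987 or above over all genes, except the KC monolayers, whose arrays correlated between 0.942 and 0.969. The labels do not say that the replicates are separate animals or isolations, so what the p-values measure is array-to-array spread, which may be technical. In these bulk samples fewer cycling cells and less of a cell cycle transcript in each cell cannot be told apart. Markers of the labelled cell types were checked first. The 19 measured endothelial markers had a mean of 6.27 in LSECs and 6.25 in hepatocytes of the 3DHL model, with Stab2 at 5.85 and 5.69, so the LSEC arrays did not stand clear of hepatocytes in the defining markers of LSECs, and albumin (Alb) was at 14.51 in LSECs and 14.49 in hepatocytes. In the 3DHLK model the endothelial mean was 6.39 in LSECs and 6.71 in hepatocytes, and the hepatocyte markers had means of 13.17 and 12.71. The macrophage markers had a mean of 7.01 in KCs of the 3DHLK model against 12.25 in the KC monolayers, and the hepatocyte markers 12.37 against 7.57. In hepatocytes of the 3DHLK model the macrophage mean was 7.93, above that of its KCs. The Y-linked gene Eif2s3y lay between 8.36 and 9.56 on the KC monolayers and between 8.18 and 8.46 on hepatocytes of the 3DHLK model, and at or below 3.56 on all other arrays, those of the KCs of the 3DHLK model among them. The cell names below are those of the labels.

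The 45 genes did not move as a block across the groups. Among the 7 groups of day 12, 22 of the 45 had their lowest mean in LSECs of the 3DHLK model and 17 their highest mean in hepatocytes of the same model. This held for 13 and 10 of the 24 mitosis genes, and 11 genes had their highest mean in HM. These counts were not made over all genes, so whether they are particular to the cell cycle genes is not known. The mean over the S phase genes, relative to HM, was -0.37 ± 0.08 in CS, 0.13 ± 0.05 in hepatocytes of the 3DHL model and 0.19 ± 0.19 in those of the 3DHLK model (SD, n = 3). In LSECs it was -0.02 ± 0.13 without KCs (3DHL) and -0.45 ± 0.11 with them (3DHLK), and it was -0.25 ± 0.14 in KCs of the 3DHLK model. In the same order of groups the mitosis mean was -0.18 ± 0.27, -0.19 ± 0.05, 0.10 ± 0.22, -0.22 ± 0.08, -0.62 ± 0.09 and -0.31 ± 0.06. In the KC monolayers the S phase mean was -0.20 ± 0.11 and the mitosis mean -0.25 ± 0.16, near those of KCs of the 3DHLK model. In LSECs of the 3DHLK model both lists lay lower than on any array of LSECs of the 3DHL model. In hepatocytes of the 3DHL model the S phase list lay higher and the mitosis list lower than in HM, and the difference between the list means, S phase minus mitosis, lay between 0.22 and 0.39 on its arrays against -0.08 to 0.05 on those of HM. In CS that difference ranged from -0.48 to 0.02, the widest range of any group.

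**Figure D1:**
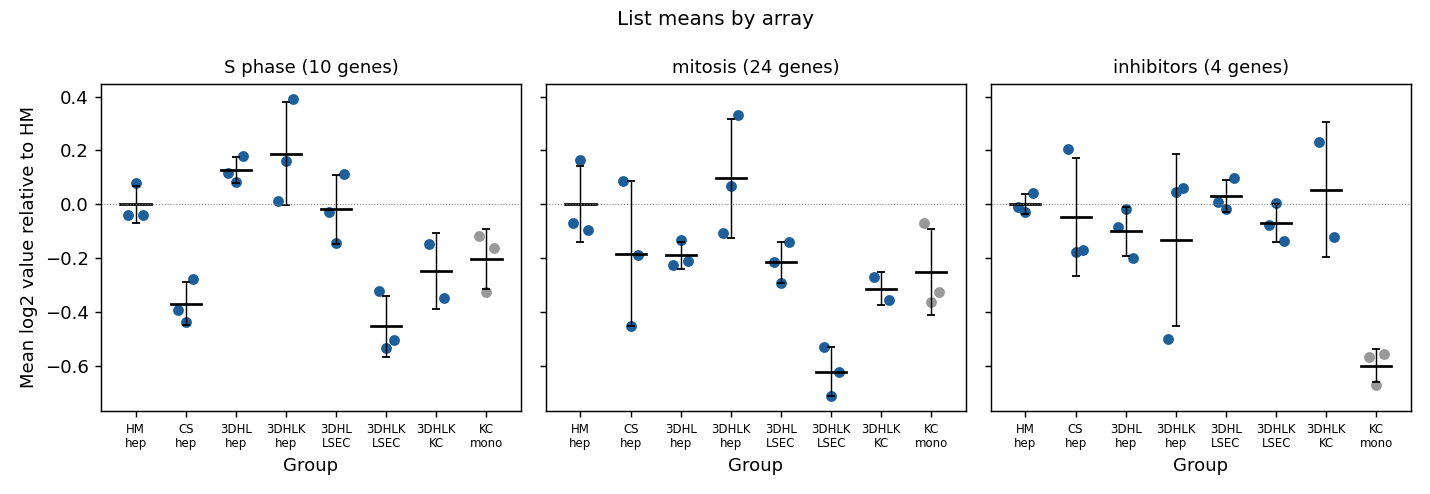
Mean log2 value relative to the mean of HM (y axis) for the S phase, mitosis and inhibitor genes in each of the 8 groups (x axis). Each point is 1 array, horizontal lines are group means and vertical bars 1 SD, and the KC monolayers are in grey. LSECs of the 3DHLK model have the lowest mitosis mean, -0.62, and KC monolayers the lowest mean of the inhibitors, -0.60.

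The heat map of the 45 genes shows that the groups differed within each list. Over the 20 arrays other than the KC monolayers, the value of a mitosis gene was set against the mean of the other mitosis genes. This correlation, which is a description of arrays that share their groups, was above 0.7 for 13 of the 24, and it was 0.94 for Cenpf, a protein of the outer kinetochore, 0.89 for Cdk1, the kinase that drives entry into mitosis, and 0.86 for Mki67, which encodes the proliferation marker Ki-67. It was below 0 for 3 mitosis genes. These were Cdc20, the activator of the anaphase-promoting complex, at -0.64, Kif11, a motor of the spindle, at -0.43 and Birc5, or survivin, at -0.27. Cdc20 has 5 probe sets and Kif11 has 2, and the values given are for the 1 that stood for each gene. Cyclin E1 (Ccne1) ran against the mitosis genes at -0.66, whereas the helicase subunit Mcm6 and cyclin D1 (Ccnd1) ran with them at 0.76 and 0.78.

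**Figure D2:**
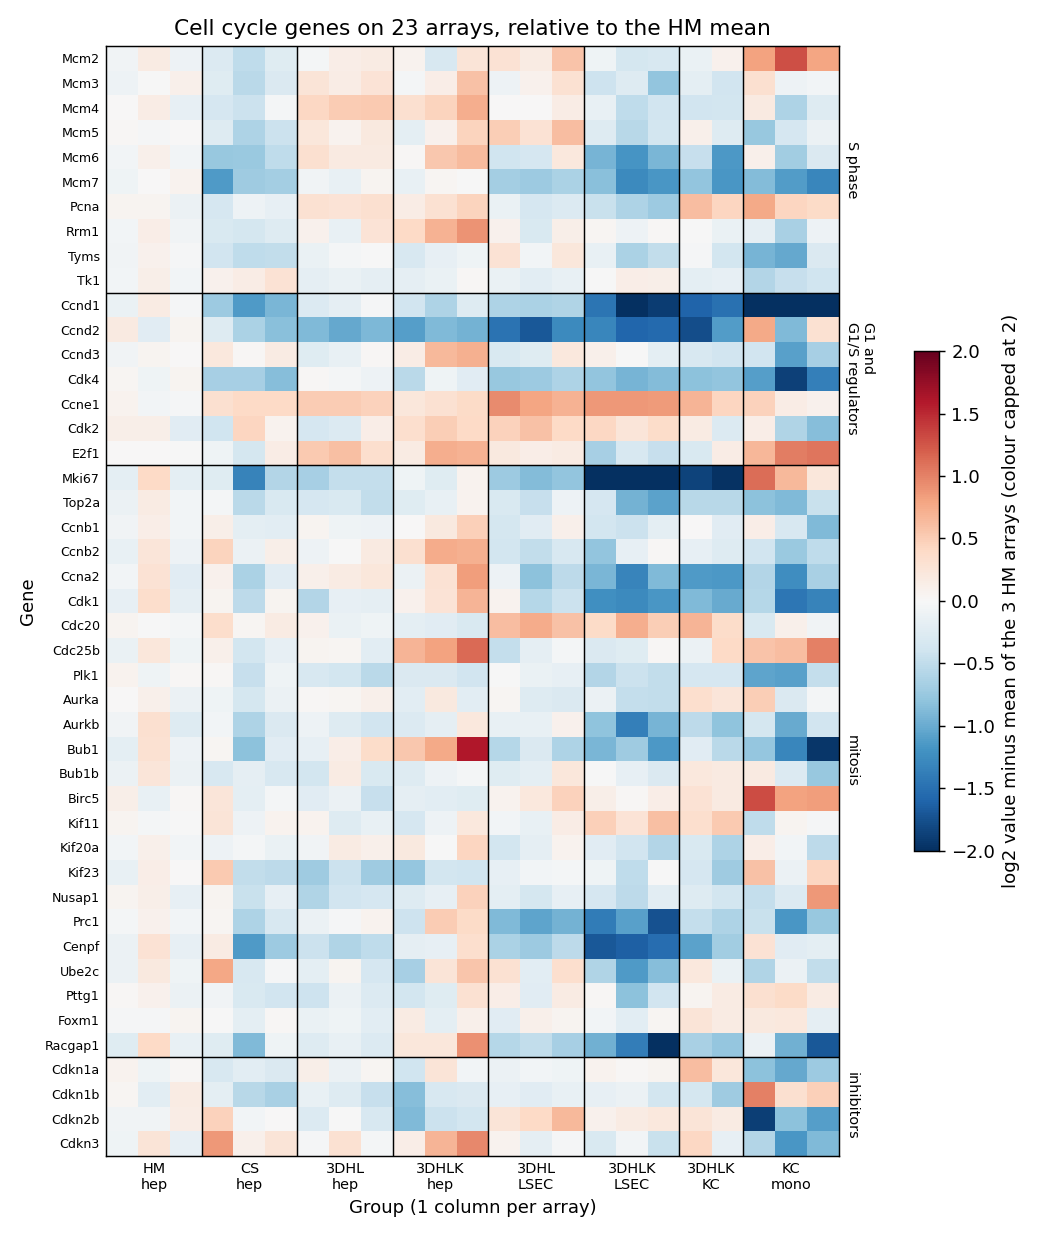
Log2 value of 45 cell cycle genes (rows, by role) on 23 arrays (columns, by group), minus the mean of the 3 HM arrays of the gene, from blue (lower) to red (higher), with the colour capped at 2. Mki67, Ccnd1, Cdk1 and Cenpf are blue on all 3 arrays of LSECs of the 3DHLK model, while Ccne1 and Cdc20 are red there.

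Since these genes ran together, or apart, across the arrays, their promoters are shown for the motifs through which such genes are known to be switched. RefSeq promoters of the rat build GRCr8, from 250 bases before to 50 after the start, were at hand for 36 of the 47 genes. They were searched on both strands for the cell cycle homology region (CHR, TTTGAA or TTCGAA), for E2F sites (TTTGGCGC, TTTCGCGC, TTCGCGCC or TTGGCGCC) and for the CCAAT box (CCAAT). Motifs may overlap, as do the second CHR of Mki67 and its reversed CCAAT box. A CHR was present in 14 of 19 mitosis promoters (73.7%), in 3 of 9 S phase promoters and in 19.5% of 27457 promoters of the table, taking the first start listed for a gene. An E2F site was present in 6 of 9 S phase promoters, in 1 of 19 mitosis promoters, that of Cdk1, and in 1.76% of all. The CCAAT box was present in 16 of 19 mitosis promoters and in 37.7% of all. A match of letters is a description and not a bound site. The 150 bases before the start follow for genes of both kinds, with every motif in capitals. Cdc20 is shown because it holds a CHR and CCAAT boxes, as Cdk1 and Mki67 do, but the probe set that stood for it ran against them.
Mki67, mitosis, chr1:199952594-199952743, minus strand: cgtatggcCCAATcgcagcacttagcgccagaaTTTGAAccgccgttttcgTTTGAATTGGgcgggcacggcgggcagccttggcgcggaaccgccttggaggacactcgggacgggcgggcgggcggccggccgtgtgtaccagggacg
Cdk1, mitosis, chr20:19265143-19265292, plus strand: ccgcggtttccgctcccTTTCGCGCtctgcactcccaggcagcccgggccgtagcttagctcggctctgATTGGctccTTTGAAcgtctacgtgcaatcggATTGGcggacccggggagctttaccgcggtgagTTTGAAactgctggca
Top2a, mitosis, chr10:84473094-84473243, minus strand: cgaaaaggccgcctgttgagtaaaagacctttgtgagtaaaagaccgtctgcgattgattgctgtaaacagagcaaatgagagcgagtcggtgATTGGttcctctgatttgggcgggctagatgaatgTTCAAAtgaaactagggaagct
Cdc20, mitosis, chr5:137255800-137255949, minus strand: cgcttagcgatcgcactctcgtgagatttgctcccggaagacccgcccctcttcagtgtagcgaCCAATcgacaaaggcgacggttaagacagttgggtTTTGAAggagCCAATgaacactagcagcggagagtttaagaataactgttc
Mcm6, S phase, chr13:42404353-42404502, minus strand: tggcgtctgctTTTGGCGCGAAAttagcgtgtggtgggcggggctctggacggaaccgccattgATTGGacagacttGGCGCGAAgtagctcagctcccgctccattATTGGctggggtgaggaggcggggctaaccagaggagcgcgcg
Tyms, S phase, chr9:120776084-120776233, minus strand: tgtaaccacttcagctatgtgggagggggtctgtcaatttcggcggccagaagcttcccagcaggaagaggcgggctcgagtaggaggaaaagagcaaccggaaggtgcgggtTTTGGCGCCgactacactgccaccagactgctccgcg

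LSECs of the 3DHLK model were compared with LSECs of the 3DHL model, to ask how the genes differ when KCs are in the culture. Some genes of S phase and of mitosis were lower with KCs present, and none passed as higher. Of the 45 genes 12 were lower and none higher at an adjusted p under 0.05 by limma, at a median change of -0.28, while 3.89% of all genes were lower, 3.58% were higher and the median over all genes was 0.04. At an unadjusted p under 0.05, 20 were lower and 2 were higher, Tk1 and Kif11. The share of all genes at that unadjusted threshold was not counted, here or in what follows, and the shares given are for the adjusted p. Whether arrays overlap between groups is given below for named genes only, and the share of all genes without overlap was not counted. By role the lower genes were 5 of 10 S phase genes, 2 of 7 G1 regulators, 5 of 24 mitosis genes and none of 4 inhibitors, none of which reached an unadjusted p under 0.05 in either direction.

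Mki67 was at 8.22, 8.07 and 8.15 in LSECs of the 3DHL model and at 6.93, 5.98 and 6.87 in those of the 3DHLK model. The arrays did not overlap, and Mki67 fell by 1.56 ± 0.26 (SE, adjusted p = 0.000469). Cyclin D1 (Ccnd1), the D cyclin that answers most directly to mitogens, was at 11.62, 11.60 and 11.63 against 10.77, 10.12 and 10.34, and fell by 1.21 ± 0.15 (adjusted p = 1.58e-05). Its 3 probe sets fell by 1.21, 1.32 and 0.97, and each passed the test. E2f1, a factor of S phase entry, was at 7.47, 7.41 and 7.44 against 6.61, 6.95 and 6.81 and fell by 0.65 ± 0.16 (adjusted p = 0.0136).

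Of the 6 measured subunits of the Mcm2-7 helicase, which unwinds DNA at the fork, 4 fell. Mcm5 was at 8.87, 8.66 and 9.0 against 8.12, 7.83 and 8.02 (change -0.85 ± 0.16, adjusted p = 0.00186). Mcm6 was at 7.97, 8.03 and 8.57 against 7.43, 7.19 and 7.44 (change -0.83 ± 0.20, adjusted p = 0.0118), and Mcm2 and Mcm3 each had a change of -0.59. The groups did not overlap for any of these. Tyms, thymidylate synthase, had a change of -0.58, whereas Rrm1, the large subunit of ribonucleotide reductase, was at 7.72, 7.32 and 7.75 against 7.67, 7.53 and 7.65, with a 95% interval of the change from -0.30 to 0.35.

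In the mitosis list, Aurkb, the kinase of the chromosomal passenger complex, was at 6.37, 6.37 and 6.60 against 5.71, 5.15 and 5.59 (change -0.96 ± 0.20, adjusted p = 0.00306). Cenpf was at 6.72, 6.62 and 6.83 against 5.66, 5.73 and 5.83 (change -0.98 ± 0.23, adjusted p = 0.00882), and Cdk1 at 7.35, 6.71 and 6.85 against 6.05, 6.01 and 6.12 (change -0.91 ± 0.22, adjusted p = 0.0128). None of these groups overlapped. Ube2c, the ubiquitin-conjugating enzyme of the anaphase-promoting complex, had a change of -1.01 ± 0.27 (adjusted p = 0.0224). Racgap1, a component of the spindle midzone, was at 6.69, 6.78 and 6.60 against 6.31, 5.89 and 5.06, a change of -0.94 that did not pass (adjusted p = 0.0771), and Kif11 had a change of 0.47 (adjusted p = 0.0749). Mki67, Ccnd1 and Mcm5 passed under every alternative run. Aurkb and Cenpf passed under all but the filter at the 30th percentile of mean level, which removed them. The count of lower genes was 7 without replicate 1 or replicate 3 of LSECs of the 3DHL model and 7 without replicate 2 of those of the 3DHLK model. Markers of other cells moved as well. The mean of the hepatocyte markers was between 13.15 and 13.19 in the 3DHLK model against 12.93 to 12.96, with 2 of 17 called higher and 1 lower, and that of the macrophage markers between 6.83 and 7.07 against 6.59 to 6.67, with 2 of 19 higher. Of 19 stellate cell and fibroblast markers 3 were lower, at the most by a change of -3.23. Xist, which is expressed from the inactive X chromosome, had a change of -1.43. The part of these in the changes of the cycle genes was not tested.

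**Figure D3:**
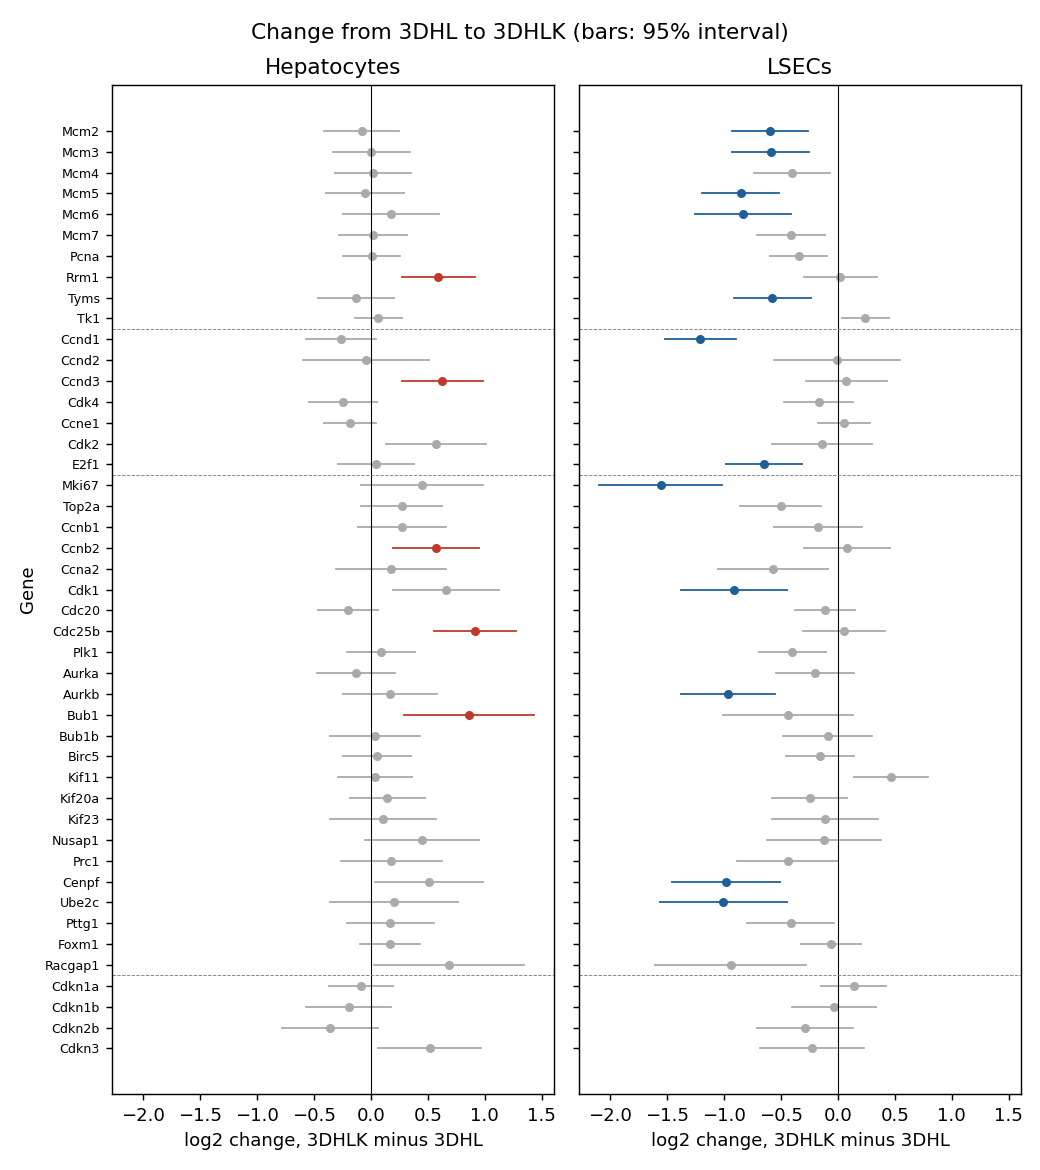
Log2 change from the 3DHL to the 3DHLK model (x axis) of each of the 45 genes (y axis, by role) in hepatocytes (left) and LSECs (right), with 95% intervals as bars, red where higher and blue where lower at an adjusted p under 0.05. In hepatocytes 5 genes are red, and in LSECs 12 are blue.

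Hepatocytes of the 3DHLK model were compared with those of the 3DHL model in the same way. A few cycle genes were higher and none lower. Of the 45 genes 5 were higher and 0 lower by limma, at a median change of 0.11 over the list. Of all genes 7.72% were higher and 3.76% lower, with a median of -0.08, and both counts lay near these shares. At an unadjusted p under 0.05, 10 of the 45 were higher and 0 lower. Among all genes called, 67.2% were higher, 77.8% after cyclic loess normalization and 48.8% in the fit without the KC monolayers. Cdc25b, a phosphatase that activates Cdk1, was at 6.76, 6.75 and 6.49 in the 3DHL model and at 7.38, 7.52 and 7.83 in the 3DHLK model. These groups did not overlap. The rise of 0.91 ± 0.17 (adjusted p = 0.000764) passed under all alternatives but the filter on low mean level, which removed Cdc25b. Bub1, a kinase of the spindle checkpoint, was at 6.23, 6.53 and 6.77 against 6.95, 7.16 and 8.0 (change 0.86 ± 0.27, adjusted p = 0.045), and the third array stood apart from the rest.

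Cyclin B2 (Ccnb2), a partner of Cdk1, was at 7.26, 7.36 and 7.54 against 7.69, 8.11 and 8.09 (change 0.57 ± 0.18, adjusted p = 0.045). Rrm1 was at 7.72, 7.48 and 7.91 against 8.03, 8.33 and 8.53 (change 0.59 ± 0.15, adjusted p = 0.0128), and cyclin D3 (Ccnd3) at 9.41, 9.52 and 9.68 against 9.81, 10.31 and 10.37 (change 0.63 ± 0.17, adjusted p = 0.0166). For each of the 3 the groups did not overlap, and no other gene of S phase or of the G1 regulators passed. The count of higher genes was 1 without replicate 3 of the 3DHLK model or replicate 2 of the 3DHL model, 2 without replicate 1 of the 3DHL model, 3 without replicate 2 of the 3DHLK model and 8 in fits without the KC monolayers. Markers of other cells were higher on these arrays as well. Among the stellate cell and fibroblast markers 13 of 19 rose, with a list mean between 9.94 and 10.23 in the 3DHLK model against 8.02 to 8.37, and 13 of 19 macrophage markers, with a list mean between 7.73 and 8.15 against 6.70 to 7.01. Eif2s3y rose by 4.76. The part of these cells in the rise of the cycle genes was not tested.

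The change from 3DHL to 3DHLK differed between LSECs and hepatocytes for 12 of the 45 genes, in each case more negative in LSECs and in no case the reverse, at a median of -0.51 over the list. Of all genes 6.81% had a lower and 3.51% a higher difference, with a median of 0.11, and 34.0% of the called differences were higher, against 22% after centring on the housekeeping genes. At an unadjusted p under 0.05, where the share of all genes was not counted, the count was 23 lower and 0 higher. These values share arrays with both comparisons above. Mki67 differed by -2.0 ± 0.37 (adjusted p = 0.000744), Cdk1 by -1.57 ± 0.32 (adjusted p = 0.00208) and Cenpf by -1.49 ± 0.32 (adjusted p = 0.00385). In hepatocytes alone Cdk1 was at 6.70, 7.12 and 7.10 against 7.37, 7.56 and 7.97, a change of 0.66 that did not pass (adjusted p = 0.0622). Of the 12 genes, 9 belong to mitosis, 2 to S phase (Mcm5 and Mcm6), and the last is cyclin D1. Of the mitosis genes in this set 6 have a promoter in the table, and 5 of these hold a CHR, beside 9 of the 13 others. Without replicate 3 of hepatocytes of the 3DHLK model 5 genes differed, and 7 differed without replicate 2 of hepatocytes of the 3DHL model, without replicate 3 of LSECs of the 3DHL model or without replicate 2 or 3 of LSECs of the 3DHLK model. The change was also more negative in LSECs for 10 of 19 macrophage markers, for 8 of 19 stellate cell and fibroblast markers and for Eif2s3y (-4.77), and their part in the differences was not tested.

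**Figure D4:**
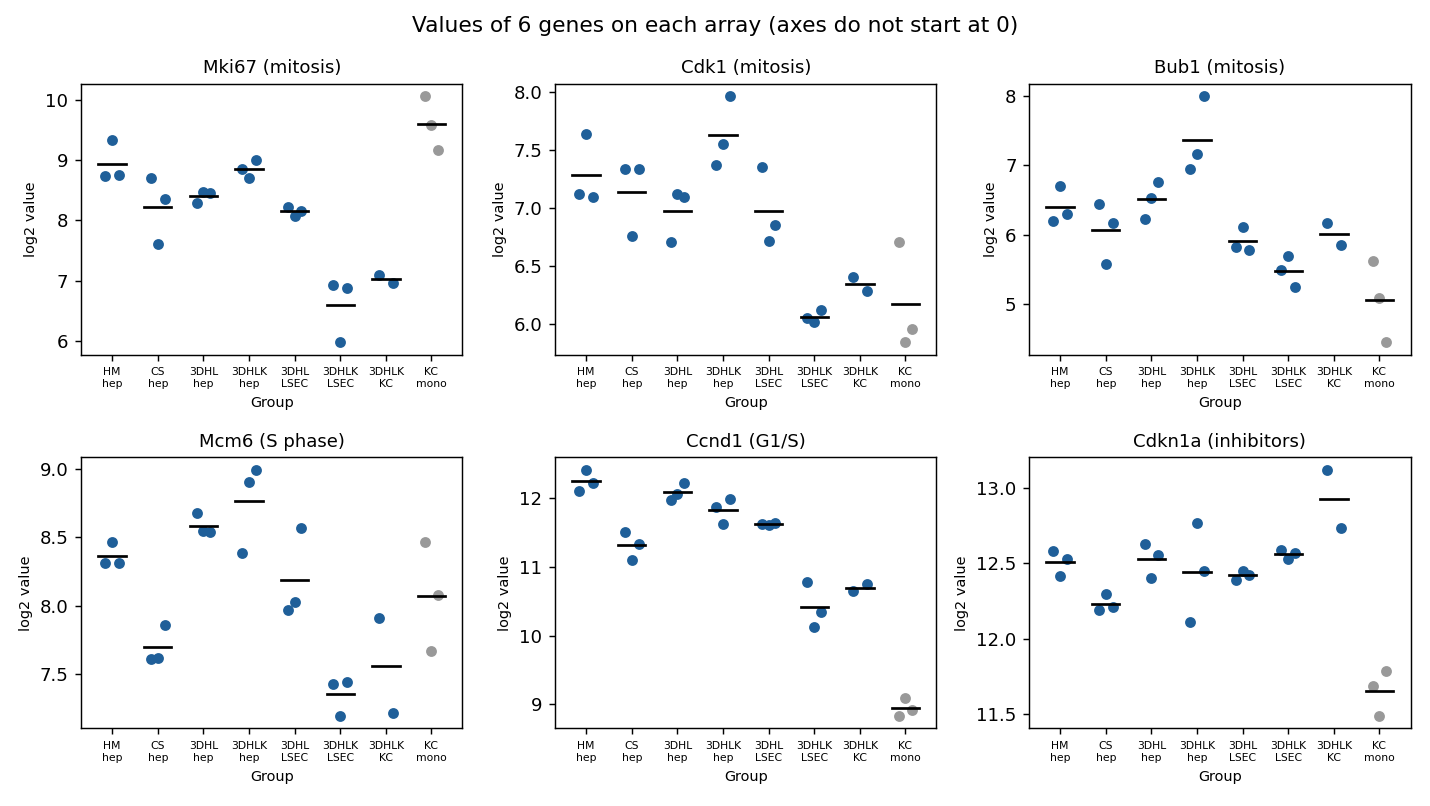
Log2 value on each array (y axis, not starting at 0) of 6 cell cycle genes in the 8 groups (x axis), where each point is 1 array, lines are group means and the KC monolayers are in grey. Mki67 has its lowest mean in LSECs of the 3DHLK model and its highest in the KC monolayers, and cyclin D1 has its lowest in the KC monolayers.

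LSECs were also set against hepatocytes of the same model. In the 3DHL model the genes were divided, with 5 higher and 7 lower in LSECs at a median of -0.11, where 18.5% of all genes were higher and 21.9% lower. Which side had more calls depended on the scaling, with 6 higher and 5 lower after centring on the housekeeping genes and 4 and 8 after cyclic loess. The lower genes were Prc1, a crosslinker of spindle microtubules, with a difference of -0.95, Cdk4, the partner of the D cyclins (-0.66), cyclin A2 (-0.64), Mcm7 (-0.62), Pcna, the sliding clamp of the replication fork (-0.54), cyclin D1 (-0.46) and Mcm4 (-0.43). The higher were Cdc20 (0.69), Cdk2 (0.64), Cdkn2b, which encodes p15 (0.64), Birc5 (0.51) and Ccne1 (0.32). Without replicate 3 of the hepatocytes 6 genes passed, and cyclin D1 had a difference of 0.04 as the mean of its 3 probe sets, of which the others were at 0.22 and 0.37. The other 4 probe sets of Cdc20 lay between 0.01 and 0.31 with no call, and Cdc20 did not pass as the mean of its 5 probe sets (0.26, adjusted p = 0.0837). In these LSECs 10 of 19 stellate cell and fibroblast markers were lower, with a list mean between 6.63 and 6.78 against 8.02 to 8.37 in hepatocytes, and Xist was higher at 1.13. Their part in these differences was not tested.

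In the 3DHLK model the balance was to one side. Of the 45 genes 26 were lower in LSECs and 4 higher, at a median of -0.58, where 25.7% of all genes were lower, 34.7% higher and the median over all genes was 0.11. The lower genes held 14 of 24 mitosis genes, 7 of 10 S phase genes, 4 of 7 G1 regulators and, of the inhibitors, Cdkn3. Mki67 was at 8.86, 8.70 and 9.01 in hepatocytes, and with 6.93, 5.98 and 6.87 in LSECs the difference was -2.26 ± 0.26 (adjusted p = 2.83e-07). Racgap1 was at 7.49, 7.49 and 8.18 against 6.31, 5.89 and 5.06 (difference -1.97 ± 0.32, adjusted p = 2.42e-05), Bub1 at 6.95, 7.16 and 8.0 against 5.49, 5.69 and 5.25 (difference -1.89 ± 0.27, adjusted p = 6.78e-06) and Mcm6 at 8.39, 8.91 and 9.0 against 7.43, 7.19 and 7.44 (difference -1.41 ± 0.20, adjusted p = 6.13e-06). None of these overlapped, while the arrays overlapped for Ube2c, which passed with a difference of -0.91. The 4 higher genes in LSECs were Cdc20 (0.78), Cdkn2b (0.72), Ccne1 (0.56) and Kif11 (0.53), and the other probe set of Kif11 was at -0.21. Of the other probe sets of Cdc20 1 was called higher at 0.56 and the rest lay between -0.01 and 0.24. Of the 30 genes 25 passed under every alternative run that kept them. Among these, the filter on low mean level removed Aurkb, Bub1, cyclin A2, Cdc25b, Cdk1, Cenpf and Racgap1. With that filter 22 calls were left, 4 higher and 18 lower. In the 3DHLK model 17 of 19 stellate cell and fibroblast markers and 14 of 19 macrophage markers were lower in LSECs as well. Of 17 hepatocyte markers 10 were higher in LSECs and 1 lower, and of 19 endothelial markers 8 were higher and 5 lower. The part of all these markers in the differences of the cycle genes was not tested.

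Among hepatocytes without KCs, CS and the 3DHL model were each compared with HM, so both comparisons share the HM arrays. In CS 1 of the 45 genes was higher and 6 lower, at a median of -0.25, where 11.1% of all genes were higher and 10.7% lower. The higher genes made up 50.8% of all called genes, and 40.2% after centring on the housekeeping genes. Cyclin D1 (Ccnd1) was at 12.10, 12.40 and 12.21 in HM and at 11.51, 11.10 and 11.33 in CS, and fell by 0.92 ± 0.15 (adjusted p = 9.03e-05). Mcm7 was at 10.70, 10.79 and 10.84 against 9.65, 10.06 and 10.10 (change -0.84 ± 0.14, adjusted p = 0.00018), and Cdk4 at 10.58, 10.46 and 10.59 against 9.87, 9.87 and 9.69 (change -0.73 ± 0.15, adjusted p = 0.000756). The groups did not overlap, and these 3 genes passed under every alternative run.

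The further calls in CS were Mki67 (change -0.72, adjusted p = 0.0495), Mcm6 (-0.67), Tyms (-0.46) and, higher, Ccne1 (0.37), and the count was 3 without replicate 2 of HM or of CS and 4 without replicate 3 of either. Of the mitosis genes only Mki67 passed. The mitosis mean was 7.42, 6.88 and 7.14 on the CS arrays and 7.26, 7.49 and 7.23 on those of HM, so the array with the highest mean of CS lay above 2 arrays of HM. The mean of the stellate cell and fibroblast markers on the same arrays was 9.24, 7.87 and 8.34 in CS and 6.96, 8.54 and 7.75 in HM, so that in each group the array highest in the 1 list was highest in the other. The part of these cells was not tested.

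In hepatocytes of the 3DHL model 1 of the 45 genes was higher than in HM and 1 lower, at a median of -0.06, where 7.04% of all genes were higher and 4.7% lower. The higher genes made up 60.0% of all called genes, and 41.9% after centring on the housekeeping genes. Ccne1 was at 8.05, 7.93 and 7.96 in HM and at 8.49, 8.48 and 8.44 in the 3DHL model (change 0.49 ± 0.11, adjusted p = 0.00459). Cyclin D2 (Ccnd2) was at 8.40, 8.01 and 8.28 against 7.35, 7.21 and 7.33 (change -0.93 ± 0.27, adjusted p = 0.0254), and it did not pass without replicate 1 or 3 of HM or any array of the 3DHL model, with an adjusted p up to 0.105. Both pairs of groups were clear of each other. With the compared arrays alone the count was 4 higher and 7 lower, where 2677 of all 14218 genes were higher and 1793 lower. The higher count lay below the share of all genes and the lower count near it. Among these, 2 higher were S phase genes and 6 lower were mitosis genes, with none the other way in either list. The cyclin D1 (Ccnd1) values of 11.97, 12.06 and 12.21 overlapped those of HM.

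KCs of the 3DHLK model, at day 12, were compared with KC monolayers, at day 3, so culture and day cannot be told apart. Of the 45 genes 13 were higher and 9 lower, at a median of 0.21, where 44.5% of all genes were higher, 20.8% lower and the median over all genes was itself 0.27. Centring on the housekeeping genes moved that median to -0.13 and the counts to 4 higher and 18 lower, and cyclic loess gave a median of 0.12 with 9 higher and 15 lower. The share of higher genes among all called was 68.2%, and 42.9% and 56.7% under these scalings. By role the S phase genes went from 2 higher and 1 lower to 0 and 5 after centring and to 0 and 6 after cyclic loess, and the mitosis genes from 5 and 5 to 0 and 10 and to 5 and 6. Under all 3 scalings 4 genes were called higher (Ccnd1, Cdkn1a, Cdkn2b and Cdkn3) and 9 lower (Mki67, Ccnd2, Cdkn1b, E2f1, Mcm2, Birc5, Cdc25b, Kif23 and Cenpf). Of these, Cenpf lost its call without replicate 1 of the KCs of the 3DHLK model (adjusted p = 0.0921) and Kif23 without replicate 2 (adjusted p = 0.0919). Cdc25b lost it without replicate 1 of these, without replicate 3 of the monolayers and in the fit of the compared arrays alone (adjusted p up to 0.232), and the other 10 passed under every alternative run. Mki67 was at 10.06, 9.58 and 9.17 in the monolayers and at 7.09 and 6.96 in the 3DHLK model, and fell by 2.58 ± 0.29 (adjusted p = 8.23e-08).

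The D cyclins of the KCs went in opposite directions. Cyclin D1 (Ccnd1) was at 8.83, 9.09 and 8.91 in the monolayers and at 10.64 and 10.74 in the 3DHLK model (change 1.75 ± 0.17, adjusted p = 6.25e-09), and cyclin D2 (Ccnd2) was at 8.98, 7.35 and 8.54 against 6.46 and 7.11 (change -1.50 ± 0.30, adjusted p = 0.000149). E2f1 was at 7.95, 8.30 and 8.34 against 6.98 and 7.42 (change -1.0 ± 0.18, adjusted p = 4.91e-05), and Mcm2 at 8.33, 8.82 and 8.32 against 7.39 and 7.61 (change -0.99 ± 0.18, adjusted p = 5.01e-05). No group overlapped in these 4. Tk1, thymidine kinase, was called higher at 0.30, but another of its probe sets was called lower at -1.07, and the change was -0.01 after cyclic loess and -0.10 after centring on the housekeeping genes. Ccne1 moved from 0.33 to -0.07 under the same centring. For cyclin B1 (Ccnb1) the second probe set was called lower at -1.29, while the one that stood for the gene was at 0.24 with no call. On these arrays all 17 hepatocyte markers were higher at a median of 4.93 and all 19 macrophage markers lower at a median of -5.24, Xist rose by 5.77 and Eif2s3y fell by 5.67. Their part in the changes was not tested.

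**Figure D5:**
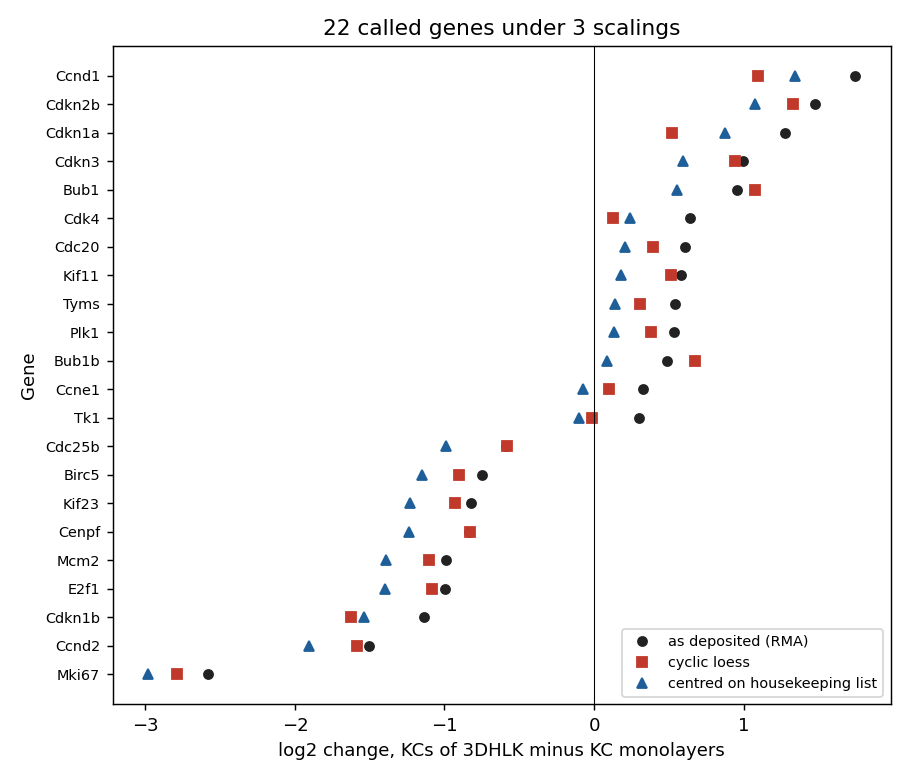
Log2 change of KCs of the 3DHLK model against KC monolayers (x axis) for the 22 called genes (y axis), with the values as deposited (black circles), after cyclic loess (red squares) and after centring on the housekeeping genes (blue triangles). Mki67 stays lowest and cyclin D1 stays above 1 under each, while Tk1 and Ccne1 lie to the left of 0 under centring.

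Against LSECs of the same model, KCs of the 3DHLK model had 4 higher genes of 45 and none lower, where 5.35% of all genes were higher and 9.73% lower. At an unadjusted p under 0.05 there were 9 higher and 2 lower genes by limma. Pcna was at 10.72 and 10.52 in KCs and at 9.66, 9.49 and 9.38 in LSECs (difference 1.12 ± 0.13, adjusted p = 3.16e-06). This was clear of overlap and passed under every alternative run. The other higher genes were Ube2c (0.90), Prc1 (0.86) and Aurka, the kinase of the spindle poles (0.65), and the count was 1 without either KC array or without replicate 3 of the LSECs and 2 without replicate 2 of the LSECs. On the same arrays 13 of 17 hepatocyte markers were lower in KCs, with all 17 negative at a median of -0.68, and 10 of 19 endothelial markers were higher at a median of 0.53, while the macrophage markers had 2 higher and 1 lower of 19. Their part in these differences was not tested.

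The 4 inhibitors differed from each other within day 12. Cdkn1a, which encodes p21, had group means between 12.23 and 12.93 in the 7 groups, with CS lowest and KCs of the 3DHLK model highest, and passed in no comparison within day 12. Its other probe set was higher in LSECs than in 3DHLK hepatocytes, at 1.46 (adjusted p = 0.000101) against 0.12 for the probe set that stood for the gene. The change of the latter from 3DHL to 3DHLK had a 95% interval from -0.14 to 0.42 in LSECs and from -0.37 to 0.20 in hepatocytes. Cdkn1b, which encodes p27, passed in none of them either. Its second probe set was lower in LSECs than in 3DHLK hepatocytes, at -1.24 against 0.27 for the probe set that stood for the gene, and lower in CS than in HM, at -0.62 against -0.46. Cdkn2b was higher in LSECs than in the hepatocytes of both 3D models, as given above. Cdkn3, a phosphatase that acts on the cyclin-dependent kinases and is itself periodic in the cycle, ran with the mitosis genes at a correlation of 0.74 and was lower in LSECs than in 3DHLK hepatocytes at -0.86 ± 0.22 (adjusted p = 0.00201). Between KCs of the 3DHLK model and the monolayers all 4 passed. Cdkn1a was at 11.69, 11.49 and 11.79 in the monolayers against 13.12 and 12.73 (change 1.27 ± 0.15, adjusted p = 2.24e-07) and Cdkn2b at 6.13, 7.19 and 6.91 against 8.26 and 8.18 (change 1.48 ± 0.23, adjusted p = 6.76e-06). Cdkn3 had a change of 1.0, while Cdkn1b was at 10.98, 10.29 and 10.44 against 9.62 and 9.25 and fell by 1.14 ± 0.20 (adjusted p = 3.67e-05).

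Other genes of the same pathway are given by list, beside the share of all genes called. In the 3DHLK LSECs set against the 3DHL LSECs 1 of 28 other S phase genes was lower, Clspn, which encodes the checkpoint mediator claspin, at -0.54, and none was higher, with 8 lower and 1 higher at an unadjusted p under 0.05 by limma. Of 36 other mitosis genes 3 were lower and none higher, among them Smc2, a core subunit of condensin, at -1.10, and Stmn1, which encodes the microtubule destabilizer stathmin, at -0.97, with 9 lower and 1 higher at an unadjusted p under 0.05. Over all genes 3.89% were lower and 3.58% higher, and 1 of 28 is near that share. The medians of the S phase and mitosis lists were -0.21 and -0.25 against 0.04 over all genes. Of 28 mitogens and receptors 5 were lower, led by Csf1, the macrophage growth factor, at -1.52 and the EGF receptor ligand Btc at -0.99, and the interleukin-6 receptor gene Il6r was higher at 0.76. Of 19 other inhibitors 2 were higher (Cebpa at 0.65 and Foxo1 at 0.60) and 2 lower (Lin9 at -0.69 and Fzr1 at -0.62), and Sesn1 was the only one of 16 p53 targets to pass, at 0.73.

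In the 3DHLK hepatocytes set against the 3DHL hepatocytes, where 7.72% of all genes were higher and 3.76% lower, none of 28 other S phase genes passed, and of 36 other mitosis genes only Nuf2, of the kinetochore, was higher, at 0.74. At an unadjusted p under 0.05 by limma, 1 of the 28 was higher and 5 were lower, and of the 36 mitosis genes 5 were higher and 1 lower. Of 16 p53 targets 5 were lower and 0 higher, against 9 and 0 at an unadjusted p under 0.05, led by Mdm2, the ubiquitin ligase of p53, at -0.86 and Gadd45a at -0.69. Of 28 mitogens and receptors 8 were higher, led by Pdgfra at 4.01, which is also one of the stellate cell markers, and Flt1 at 2.31, which is also one of the endothelial markers, and 3 lower, led by Btc at -1.14 and Pdgfa at -0.59. Cdkn1c, which encodes p57, was the 1 higher gene of 19 other inhibitors, at 1.61, and Wee1, a kinase that restrains Cdk1, was lower at -0.53, as was Lin37 of the DREAM complex at -0.47.

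Between KCs of the 3DHLK model and the monolayers, where the median over all genes was 0.27 and 44.5% of all genes were higher and 20.8% lower, 13 of 16 p53 targets were higher and none lower at a median of 2.19, led by Perp at 4.39 and Phlda3 at 3.35. At an unadjusted p under 0.05 by limma 14 were higher and 1 lower, and after cyclic loess or centring 13 were higher and 2 lower. The p53 target mean was 8.78 for the monolayers and 10.77 for the 3DHLK KCs. Every hepatocyte and LSEC group had a mean between 10.10 and 10.52, so the monolayers alone were low. Hepatocyte markers were higher too in this comparison, at a median of 4.93. Their part in the p53 target changes was not tested. Of 28 other S phase genes 13 were higher, led by the checkpoint kinase gene Chek1 at 1.40 and the primase subunit Prim2 at 1.32, and 3 lower, led by Orc1 at -1.64 and Lig1 at -0.92. The share of higher genes in this list was near that of all genes. Its median was 0.30, but -0.10 after centring on the housekeeping genes. Of 36 other mitosis genes 12 were higher, led by Cks1b at 2.25 and Smc2 at 2.03, and 2 lower (Fam83d at -0.73 and Espl1 at -0.62), and after centring 7 were higher and 7 lower. Tob1 at 4.21 and E2f4 at 1.58 led 11 higher genes of 19 other inhibitors, and Cebpa at -2.73 and Rbl2 at -1.40 led 4 lower. In the list of 28 mitogens and receptors 7 were higher, led by Myc at 4.36, which encodes a transcription factor and neither of these, and Nrg1 at 3.60. The 10 lower were led by Csf1r, the receptor of the macrophage growth factor and one of the macrophage markers, at -7.13, and the receptor subunit Csf2rb at -3.67.

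The counts of the other lists at the adjusted p in the remaining comparisons are read against the shares of all genes at that threshold. These were 11.1% higher and 10.7% lower in CS, 7.04% and 4.7% in the 3DHL model against HM, 18.5% and 21.9% in LSECs against hepatocytes of the 3DHL model, and 34.7% and 25.7% in the 3DHLK model. They were 5.35% and 9.73% in KCs against LSECs, and 3.51% and 6.81% for the difference of changes. Of the 28 other S phase genes 0 were higher and 2 lower in CS than in HM, and 2 higher and 0 lower in hepatocytes of the 3DHL model than in HM, and the unadjusted counts by limma were 0 and 5, and 7 and 1. Between LSECs and hepatocytes 1 was higher and 1 lower in the 3DHL model, and 4 and 7 in the 3DHLK model. Of the 36 other mitosis genes 2 were higher and 5 lower in LSECs than in 3DHL hepatocytes, both below the shares of all genes, and 2 and 13 in the 3DHLK model, where cyclic loess gave 2 and 22. In CS and in the 3DHL model 1 was higher and 1 lower than in HM. The change from 3DHL to 3DHLK differed between LSECs and hepatocytes for 3 of them, all more negative in LSECs, with 13 so and 0 the reverse at an unadjusted p under 0.05 by limma, and for none of the 28 S phase genes, where 2 and 0 did so. KCs of the 3DHLK model had 5 higher and 0 lower of the 36 against LSECs, and 2 and 0 of the 28, and the unadjusted counts by limma were 13 and 0, and 6 and 0.

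Of the 16 p53 targets, read against the same shares, 2 were higher and 2 lower in CS than in HM, near the shares of all genes, and 3 and 0 in hepatocytes of the 3DHL model, where the unadjusted count by limma was 4 and 2 and centring on the housekeeping genes or cyclic loess gave 2 higher and 2 lower. In LSECs 5 were higher and 4 lower than in hepatocytes of the 3DHL model, and 8 and 2 in the 3DHLK model. Against LSECs, KCs of the 3DHLK model had 6 higher and 1 lower. The change from 3DHL to 3DHLK was more positive in LSECs than in hepatocytes for 2 of them and more negative for 0, with 5 and 1 at an unadjusted p under 0.05 by limma. After cyclic loess 0 were more positive and 1 more negative. Of the 19 other inhibitors 7 were lower and 2 higher in LSECs than in 3DHL hepatocytes, and 7 and 4 in the 3DHLK model. In the comparisons of CS and 3DHL with HM, of KCs with LSECs and of the 2 changes, 4 lower and 0 higher, 1 and 3, 2 and 4, and 1 and 3 of them passed, and in CS the unadjusted counts by limma were 5 and 1. The 28 mitogens and receptors had 7 higher and 5 lower in CS, 1 and 3 in 3DHL hepatocytes against HM, 5 and 2 in LSECs against hepatocytes of the 3DHL model, 6 and 8 in those of the 3DHLK model, 4 and 4 in KCs against LSECs, and 1 and 5 in the difference of the changes.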

How the data were processed

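Expression was measured on 23 Affymetrix rat genome arrays, each with RNA amplified by NuGEN kits per the labels. The authors processed the scans with RMA in the Simpleaffy package, by background correction, quantile normalization and summarization, and deposited 1 table of log2 values, with the RMA version not given in the sources used here. Detection calls were not used here, so signal over background could not be judged, and precision is limited by how many arrays there were.

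Groups came from the labels. The name KC monolayers came from the study's methods. Of 31099 probe sets 20832 name 1 gene in the platform annotation and 436 several, which were left out. The probe set with the highest mean stood for each of 14218 genes. Limma 3.58.1 in R 4.3.3 fitted the 8 group means over all arrays (lmFit, eBayes, 15 residual degrees of freedom), with two-sided tests and Benjamini-Hochberg adjustment over all genes, and an adjusted p under 0.05 was called. Intervals are 95% intervals from the same fit. This adjusted p is the one given throughout.

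Alternatives were the arrays compared alone, a fit without KC monolayers, a replicate block, the mean of all probe sets, a filter at the 30th percentile of mean level, cyclic loess, centring on 18 housekeeping genes, a trended and robust prior, and leaving out each array. The code was tested on simulated data. Promoters were taken from RefSeq, build GRCr8. Figures used Python 3.11.15, pandas 2.3.3 and matplotlib 3.10.9. The members and lists were chosen with earlier results of these data known. Any member could be named, and of each other list the 2 largest called rises and falls in the 3 comparisons of 3DHLK against 3DHL or KC monolayers.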

Additional observations from a re-analysis of the deposited data

Results flagged for a closer look

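For 12 cell cycle genes the change from the 3DHL to the 3DHLK model differed between LSECs and hepatocytes by a test of the difference itself (limma, adjusted over all genes). Each value is the change in LSECs minus the change in hepatocytes on the log2 scale. No group held more than 3 arrays, so single arrays were not tested as outliers.

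In mitosis, Mki67 differed by -2.0 (adjusted p = 0.000744), from a change of -1.56 in LSECs and 0.45 in hepatocytes. Racgap1 differed by -1.63 (adjusted p = 0.0219; changes -0.94 and 0.69) and Cdk1 by -1.57 (adjusted p = 0.00208; changes -0.91 and 0.66). Cenpf differed by -1.49 (adjusted p = 0.00385; changes -0.98 and 0.51) and Bub1 by -1.29 (adjusted p = 0.0349; changes -0.43 and 0.86). For Ube2c the difference was -1.21 (adjusted p = 0.0455; changes -1.01 and 0.20), and for Aurkb it was -1.13 (adjusted p = 0.0103; changes -0.96 and 0.17). Cdc25b differed by -0.85 (adjusted p = 0.0271), from 0.06 in LSECs and 0.91 in hepatocytes, and Top2a by -0.77 (adjusted p = 0.0449), from -0.50 and 0.27.

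In S phase, Mcm6 differed by -1.01 (adjusted p = 0.0256), from -0.83 in LSECs and 0.18 in hepatocytes, and Mcm5 by -0.80 (adjusted p = 0.0287), from -0.85 and -0.05. Ccnd1 differed by -0.95 (adjusted p = 0.00472), from -1.21 and -0.26, the hepatocyte change being in the same direction as in LSECs.

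Of the 12, Ccnd1 and Mki67 passed under every alternative run. Aurkb, Cdk1 and Cenpf passed under all but the filter on low mean level, which removed them. Each of the other 7 lost its call when a single array was left out, for at least 2 choices of the array. By the same test 10 of 19 macrophage markers, 8 of 19 stellate cell and fibroblast markers and Eif2s3y (-4.77) differed in the same direction, and their part in these differences was not tested.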

How the results depend on the processing

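Of 1483 values of the 106 calls recomputed under the alternatives, 1280 kept direction and threshold, 198 lost the threshold and 5 turned sign; the cause was not tested. Called genes numbered 12 instead of 7 in CS against HM, 11 instead of 2 in 3DHL against HM, 8 instead of 5 in hepatocytes of 3DHLK against 3DHL, 22 instead of 12 in LSECs against hepatocytes of 3DHL and 13 instead of 22 in KCs against KC monolayers when only the arrays compared were fitted. Counts over all genes moved too in these fits. In CS they went from 1574 higher and 1526 lower to 2103 and 2138, and in 3DHL from 1001 and 668 to 2677 and 1793. In hepatocytes of 3DHLK they went from 1098 and 535 to 1226 and 773. In LSECs against hepatocytes of 3DHL they went from 2624 and 3113 to 4174 and 4227. In KCs against monolayers they went from 6324 and 2954 to 4013 and 1894. Without KC monolayers the counts were 7 for 3DHL against HM, 8 for hepatocytes and 19 instead of 12 for LSECs of 3DHLK against 3DHL, and 8 instead of 4 for KCs against LSECs. Of all genes that fit gave, in the same order, 1984 higher and 1271 lower, 1483 and 1553, 1241 and 1094, and 1574 and 2065. The main fit gave 1001 and 668, 1098 and 535, 509 and 553, and 761 and 1384. For 3DHL against HM the mean of all probe sets gave 5, and the filter and cyclic loess 4 each. The filter removes 13 of the 45 genes and gave 3 for hepatocytes of 3DHLK and 7 instead of 12 for the difference of changes. Leaving out 1 array gave 3 to 7 in CS, 1 to 2 in 3DHL against HM, 1 to 6 in hepatocytes and 7 to 15 in LSECs of 3DHLK, 6 to 10 and 26 to 31 in LSECs against hepatocytes of 3DHL and 3DHLK, 16 to 27 in KCs against monolayers, 1 to 5 in KCs against LSECs and 5 to 16 for the difference of changes. Here the counts under the other alternatives and with single arrays left out are given without those over all genes. Reversed were Ccnd1 in LSECs against hepatocytes of 3DHL (0.045, mean of all probe sets), and in KCs against monolayers Tk1 (-0.074 with that mean, -0.013 after cyclic loess, -0.099 after centring) and Ccne1 (-0.072 after centring).

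Replicate numbers were not taken as a pairing of arrays, as same-numbered arrays of the groups compared had deviations correlated from -0.308 to 0.335. With so few arrays in a group, these correlations cannot show whether fractions of the same model came from the same cultures. The main fit treated all arrays as independent. With the replicate block the counts, in the order CS, 3DHL, hepatocytes and LSECs of 3DHLK, LSECs against hepatocytes of 3DHL and 3DHLK, KCs against monolayers, KCs against LSECs and the difference, were 7, 3, 3, 12, 12, 30, 21, 3 and 10. For the difference of changes Bub1, Top2a and Ube2c lost their call with the block. How far the genes lie above background is unknown.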
